A study of Mus musculus with 6 samples.

Results

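The lysyl oxidase family comprises Lox and Loxl1 to Loxl4, 5 genes by symbol. The annotation of the arrays gave a probe set of its own to 4 of them, Lox, Loxl1, Loxl3 and Loxl4, out of 18193 genes measured in all. Both probe sets that carry the symbol Loxl2 also carry that of a second gene, Gm21451, so no level of Loxl2 is given. Where a gene had several probe sets, the brightest by mean over the 6 arrays stood for it, and the others served as a check.

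RNA came from NMuMG cells, an immortal epithelial cell line derived from the mammary gland of a healthy mouse, grown with serum and insulin in all groups. The withdrawal group received TGF-β at 4 ng/ml for 11 days and was then kept for 13 days without it, the TGF-β group received the same dose for 11 days, and the control group received vehicle. Each group had 2 arrays. Whether the 2 were grown apart is not stated in the labels, and the p-values cover only the scatter of these samples, part of which may be technical. The withdrawal cells were also kept longer than the TGF-β cells, so that the effect of removing TGF-β and that of added days cannot be told apart. A single control group served both treated groups and cannot match both in days, so this limit also touches the comparisons with control.

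Lysyl oxidases are secreted, copper-dependent amine oxidases that convert lysine and hydroxylysine side chains of collagens and elastin into reactive aldehydes, from which the covalent crosslinks of the extracellular matrix form. Lox and Loxl1 are made as proenzymes with a propeptide, whereas Loxl2, Loxl3 and Loxl4 carry scavenger receptor cysteine-rich domains ahead of a similar catalytic domain. Lox is a known target of TGF-β in fibroblasts and epithelial cells, and family members are studied in fibrosis and in the stiffening of tumour matrix.

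All 4 measured members were higher after 11 days of TGF-β than in control, and all 4 were still called higher than control after 13 days of withdrawal, or 3 without Loxl4 when the arrays were scaled to spiked RNAs. They parted between those states: Loxl1 rose further on withdrawal, Lox fell, Loxl4 fell on 1 of its 2 probe sets, and Loxl3 did not pass the test. Lox and Loxl1 were still more than 4 log2 units above control after withdrawal, whereas Loxl4 was 0.38 above it.

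**Figure D1:**
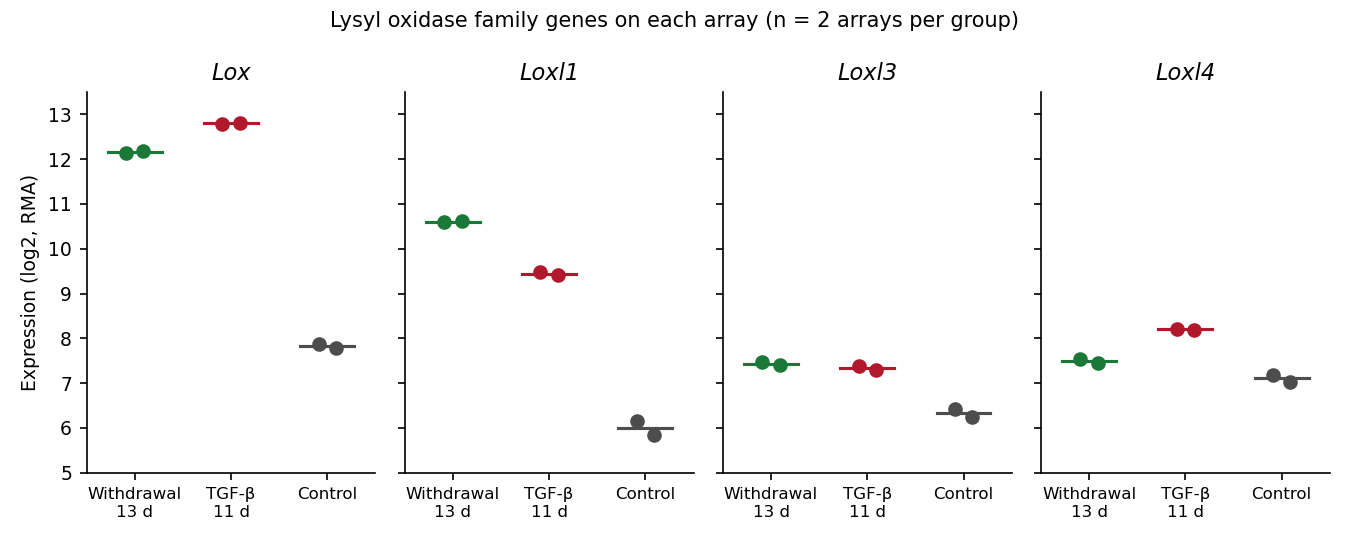
Expression of Lox, Loxl1, Loxl3 and Loxl4 (vertical axis, log2 RMA values) on each array of the withdrawal, TGF-β and control groups, with points for the 2 arrays and a bar for their mean. The control arrays are lowest for every gene shown; the TGF-β arrays are highest for Lox and Loxl4, and the withdrawal arrays for Loxl1. Levels of different genes come from different probes and are not comparable with each other.

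Lox encodes the founding enzyme of the family, which crosslinks fibrillar collagens. On the log2 scale of the deposited values, Lox (probe set 1416121_at, gene number 16948) stood at 12.79 and 12.81 on the TGF-β arrays, against 7.88 and 7.79 on the control arrays. The groups lay far apart, with a gap of 4.90 between their nearest arrays. The mean was 12.80 ± 0.020 under TGF-β and 7.84 ± 0.064 in control (SD, n = 2 each), a difference of 4.96 ± 0.057 (SE), or 31.2-fold (limma, adjusted p = 1.09e-06). Among the 18193 genes this was rank 2 by size of increase.

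After withdrawal Lox stood at 12.13 and 12.19, below both TGF-β arrays. The difference from TGF-β was -0.64 ± 0.057 (SE), so that the level was 0.642 times that under TGF-β (limma, adjusted p = 0.000273). Against control, Lox was higher by 4.32 ± 0.057 (SE) after withdrawal, or 20.0-fold (limma, adjusted p = 2.22e-06), which was rank 15 by size of increase. The 3 states of Lox were thus ordered TGF-β, withdrawal and control from high to low, and each neighbouring pair differed in the test.

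Loxl1 encodes the member best known for crosslinking elastin and for the upkeep of elastic fibres. Loxl1 (probe set 1451978_at, gene number 16949) stood at 9.49 and 9.40 on the TGF-β arrays, against 6.16 and 5.83 on the control arrays. The control arrays differed from each other more than those of any other group and gene of the family, yet the groups did not overlap. The difference was 3.45 ± 0.11 (SE), or 10.9-fold (limma, adjusted p = 9.09e-06), rank 25 by size of increase.

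After withdrawal Loxl1 stood at 10.59 and 10.62, above both TGF-β arrays. It rose on withdrawal by 1.16 ± 0.11 (SE), or 2.24-fold over TGF-β (limma, adjusted p = 0.000358), and was the member that the test called higher in that comparison. Against control, the difference after withdrawal was 4.61 ± 0.11 (SE), or 24.4-fold (limma, adjusted p = 4.32e-06). That placed Loxl1 at rank 9 among all genes, against rank 15 for Lox. The order from high to low was withdrawal, TGF-β and control.

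Loxl3 encodes a member needed for the development of palate and spine in mice. Loxl3 (probe set 1418269_at, gene number 16950) stood at 7.38 and 7.30 on the TGF-β arrays, against 6.43 and 6.24 on the control arrays. It was higher under TGF-β by 1.00 ± 0.078 (SE), or 2.00-fold (limma, adjusted p = 0.00025).

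On the withdrawal arrays Loxl3 stood at 7.47 and 7.41, slightly above the TGF-β arrays and with no overlap. The difference from TGF-β was 0.10, with a 95% interval of -0.09 to 0.29, and did not pass (limma, adjusted p = 0.373). Against control the difference after withdrawal was 1.10 ± 0.078 (SE), or 2.14-fold (limma, adjusted p = 9.75e-05). Both treated groups of Loxl3 therefore lay above control, without an order between them beyond the spread.

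Loxl4 encodes the remaining member with scavenger receptor domains. Loxl4 (probe set 1421153_at, gene number 67573) stood at 8.22 and 8.18 on the TGF-β arrays, against 7.18 and 7.04 on the control arrays. The difference was 1.09 ± 0.070 (SE), or 2.13-fold (limma, adjusted p = 0.000119), close in size to that of Loxl3.

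After withdrawal Loxl4 stood at 7.54 and 7.44, between the other groups and without overlap with either. On this probe set it fell on withdrawal, with a difference from TGF-β of -0.71 ± 0.070 (SE; limma, adjusted p = 0.000428). With its other probe set in the fit over genes it was at -0.06 and did not pass (limma, adjusted p = 0.579), and the mean of both gave -0.38 (adjusted p = 0.00126). It was higher than control after withdrawal by 0.38 ± 0.070 (SE), or 1.31-fold (limma, adjusted p = 0.00557). The last call was not kept when the arrays were scaled to spiked RNAs, where the difference was 0.24 with poly-A spikes and 0.0078 with hybridization spikes (limma, adjusted p = 0.272 and 0.961).

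Over all genes tested, TGF-β gave calls of higher for 15.0% and of lower for 17.5% relative to control, and 4 of the 4 measured members were called higher. Set against TGF-β, withdrawal gave calls of higher for 21.8% of all genes and of lower for 22.1%, and of the 4 members 1 was called higher and 2 lower, or 1 lower on the next probe sets. For withdrawal against control, 21.7% of all genes were called higher and 23.6% lower, and 4 of the 4 members were called higher, or 3 with either spike scaling. The median change of the members was 2.27 under TGF-β and 2.71 after withdrawal, both against control, beside medians of -0.01 and -0.04 over all genes, and from TGF-β to withdrawal it was -0.27 beside -0.03. Each pair of these 3 comparisons shares the arrays of a group, so they are not independent.

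Other probe sets of the same genes gave the same direction of change with sizes that differed. They were tested in a fit over 45037 probe sets. A second probe set of Lox, 1448228_at, measured 12.24 and 12.23 under TGF-β and 7.16 and 6.96 in control, a change of 5.18, and on withdrawal it changed by -0.69 from TGF-β (limma, adjusted p = 0.00129). The third, 1437903_at, was dim on all arrays, at 4.11 to 5.07, and its change under TGF-β was 0.73 (limma, adjusted p = 0.0111). Its differences on withdrawal did not pass, at -0.30 from TGF-β and 0.43 from control (limma, adjusted p = 0.153 and 0.0514).

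The other probe set of Loxl1, 1436063_at, showed the same order of states at smaller size. It measured 7.92 and 8.13 after withdrawal, 7.49 and 7.49 under TGF-β and 6.14 and 6.29 in control. Its changes were 1.27 for TGF-β against control, 0.53 for withdrawal against TGF-β and 1.80 for withdrawal against control, all passing (limma, adjusted p = 0.000224, 0.00563 and 3.41e-05). The rise of Loxl1 on withdrawal was therefore called by both of its probe sets.

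The fall of Loxl4 on withdrawal was called by only 1 of its 2 probe sets. The other, 1450134_at, measured 6.70 and 6.70 after withdrawal, 6.69 and 6.83 under TGF-β and 6.27 and 6.36 in control. The withdrawal and TGF-β arrays overlapped on it, with a difference of -0.06 (limma, adjusted p = 0.587). Against control its changes were 0.45 under TGF-β and 0.38 after withdrawal, both passing (limma, adjusted p = 0.00736 and 0.00838). Loxl3 has a single probe set here and no such check.

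**Figure D2:**
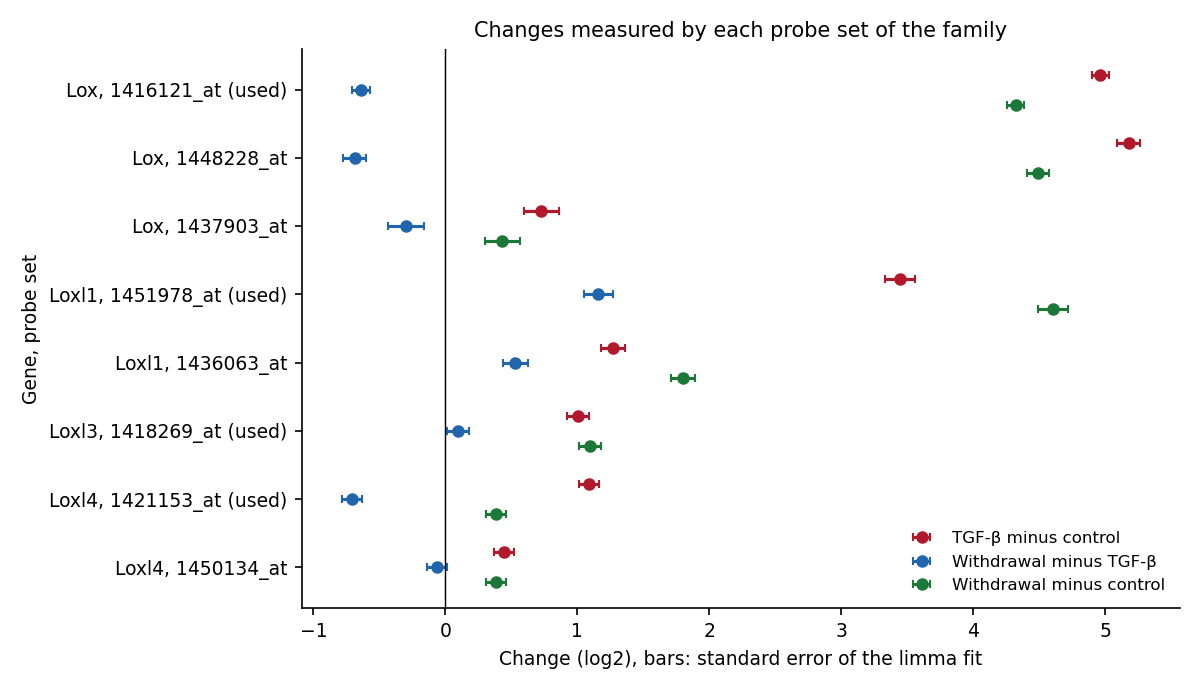
Log2 change (horizontal axis) of each of the 8 probe sets of Lox, Loxl1, Loxl3 and Loxl4 that carry a single gene symbol, for TGF-β minus control, withdrawal minus TGF-β and withdrawal minus control; bars are standard errors of the limma fit over all probe sets. The blue points lie right of 0 for both Loxl1 probe sets, at 1.16 and 0.53, and left of 0 for all 3 Lox probe sets, and for Loxl4 they stand at -0.71 and -0.06.

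Genes with the most similar course were found for each member as those with the smallest root mean square difference over the 6 arrays, after each gene was centred on its own mean, among 16311 other named genes. For Lox these were Klhl30, the chemokine gene Cxcl12, the protocadherin gene Pcdh19, the endoplasmic reticulum calcium-binding gene Rcn1 and Fstl1, at differences of 0.31, 0.37, 0.53, 0.59 and 0.61. Cxcl12 rose under TGF-β by 4.49 and was still 4.75 above control after withdrawal. Between those states its probe sets were called in opposite directions, 0.26 on the one used and -0.49 on another.

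For Loxl1 the closest genes were the protease inhibitor gene Serpinb1a, the aggrecanase gene Adamts5, the transcriptional coactivator gene Eya4, Rnase4 and Pcdhb17, at 0.20 to 0.28. They were above control by 2.84 to 3.43 under TGF-β and by 4.09 to 5.03 after withdrawal. Pcdhb17 belongs to a cluster of closely similar genes and is uncertain. Loxl1 itself was the tenth closest gene to Lox, at 0.79, and Lox took rank 41 for Loxl1.

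For Loxl3 the closest were Arfgap3, Tmem181a, the sulfite oxidase gene Suox, Glipr1 and the neurotrophin gene Bdnf, at 0.056 to 0.077. Tmem181a has a near-identical relative and is uncertain. For Loxl4 they were Abtb2, the kinase gene Nuak1, the endosialin gene Cd248, the apoptosis gene Pmaip1 and the collagen prolyl hydroxylase gene P4ha1, at 0.046 to 0.062. P4ha1 changed by 0.98 under TGF-β and by -0.65 on withdrawal, beside 1.09 and -0.71 for Loxl4. The likeness to Loxl4 holds for the probe set used. On its other probe set, 1450134_at, the difference between withdrawal and TGF-β was -0.06 (limma, adjusted p = 0.587). Small differences here also come with small changes, so they are not comparable between members.

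**Figure D3:**
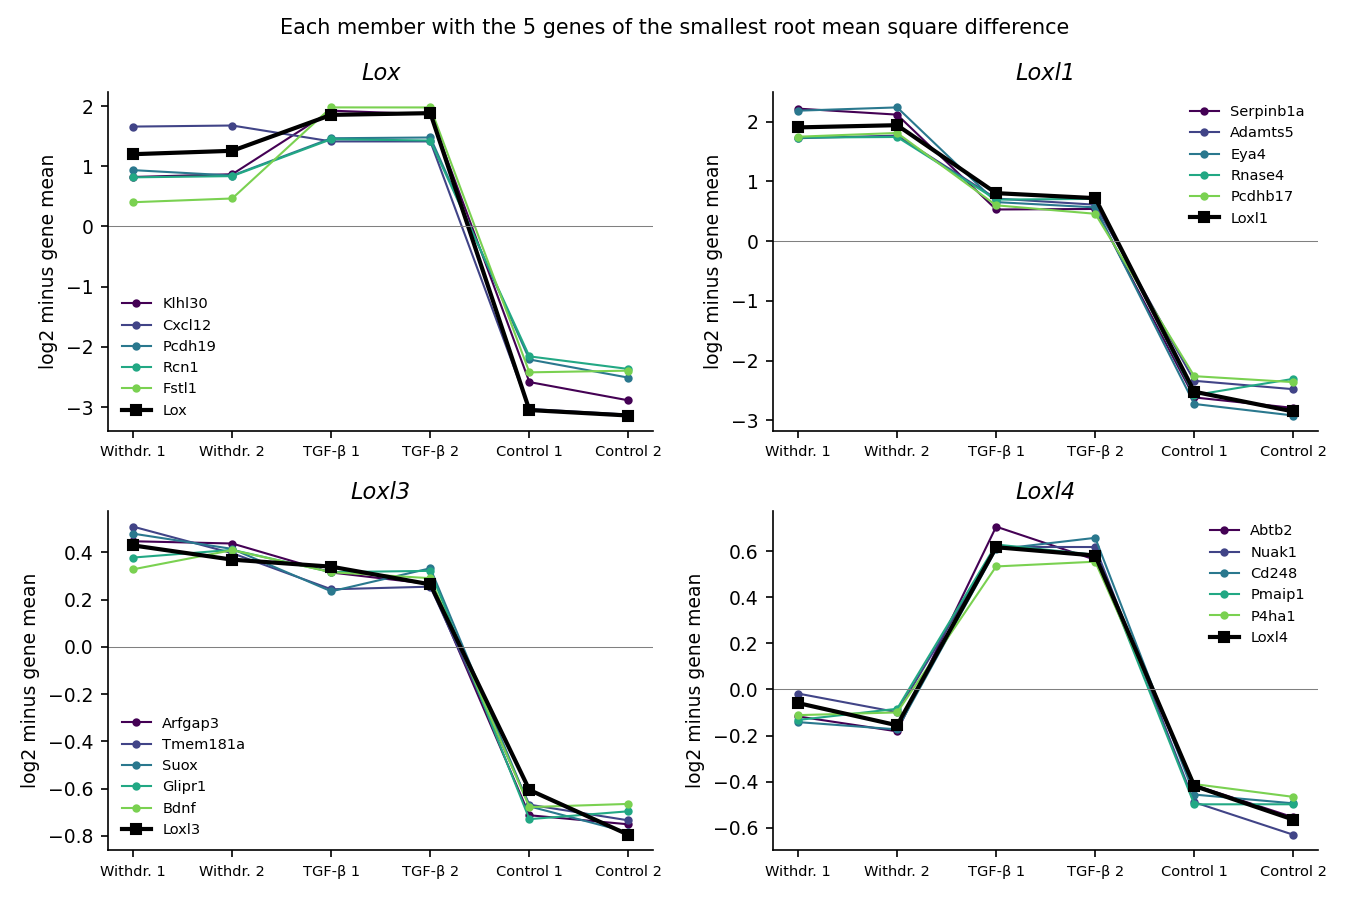
Log2 expression minus the gene's own mean over the 6 arrays (vertical axis) on each withdrawal, TGF-β and control array, for each family member (black squares) and the 5 genes with the smallest root mean square difference from it (coloured lines). Lox and its closest genes are lowest in control and stay high in both treated groups. Loxl1 and its closest genes are highest after withdrawal, and Loxl4 and its closest genes are highest under TGF-β. The genes were chosen for this likeness, so the shared course is not a finding about them. The other probe set of Loxl4 did not show its fall on withdrawal. The vertical scales differ between panels.

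Genes with functions related to the enzymes were followed next, beginning with their substrates, the fibrillar and network collagens and the elastic fibre proteins. Of 16 measured, 8 rose under TGF-β, 0 fell and 8 did not pass, beside 15.0% higher and 17.5% lower of all genes, with a median change of 0.39. After withdrawal 0 were higher than under TGF-β, 10 were lower and 6 did not pass, beside 21.8% higher and 22.1% lower of all genes, with a median of -0.42 beside -0.03 over all genes. With poly-A scaling 6 were lower. Col1a1, which encodes a chain of type I collagen, measured 6.43 and 6.16 after withdrawal, 9.57 and 9.83 under TGF-β and 5.85 and 5.89 in control. Its withdrawal arrays lay close above the control arrays, with a difference of 0.42 ± 0.12 (SE; limma, adjusted p = 0.0317), beside 4.32 for Lox and 4.61 for Loxl1 in the same comparison. That call of Col1a1 was lost with poly-A and hybridization spikes, at 0.27 and 0.04 (limma, adjusted p = 0.203 and 0.787).

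Col5a3 and Col5a1, chains of type V collagen, fell on withdrawal by 3.64 and 1.08, and against control Col5a3 was at 0.06 (limma, adjusted p = 0.789) and Col5a1 at 1.38. Col1a2 was above control by 0.93 after withdrawal, and Col4a1 and Col4a2, of the basement membrane, by 0.91 and 0.74. Eln, which encodes elastin, the substrate associated with Loxl1, was at -0.01 under TGF-β and -0.12 after withdrawal, both against control, and passed in neither (limma, adjusted p = 0.927 and 0.256). After withdrawal 6 of the 16 substrate genes were higher than control, 1 lower and 9 did not pass, beside 21.7% higher and 23.6% lower of all genes. There were 2 lower without the second control array and 9 lower with hybridization spike scaling. The median of 0.04 turned to -0.10 and -0.33 with poly-A and hybridization spikes.

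Of 17 measured genes for collagen maturation inside the cell, 11 rose under TGF-β, 1 fell and 5 did not pass, beside 15.0% and 17.5% of all genes, with a median of 0.66. Plod2, a lysyl hydroxylase whose products are substrates of lysyl oxidases, rose by 1.98, and the collagen chaperone gene Serpinh1 by 1.87. From TGF-β to withdrawal 3 rose, 8 fell and 6 did not pass, beside 21.8% and 22.1% of all genes, with a median of -0.16. Plod2 fell by 1.14, and the prolyl hydroxylase gene P3h2 rose by 1.84. Against control, 12 were higher after withdrawal, 3 lower and 2 did not pass, beside 21.7% and 23.6% of all genes. Among the higher were Plod2 at 0.83 and Plod1, a second lysyl hydroxylase, at 1.47. Another probe set of Plod1 was at -0.26 in that comparison (limma, adjusted p = 0.0601). Without either control array or either withdrawal array 1 was lower in place of 3, and with hybridization spikes 7 were higher.

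Among 22 measured genes for proenzyme processing and for docking in the matrix, 10 rose under TGF-β, 0 fell and 12 did not pass, beside 15.0% and 17.5% of all genes, with a median of 0.19 that turned to -0.10 with poly-A scaling. Bmp1, which encodes the protease that removes the propeptide of Lox, measured 9.39 and 9.35 after withdrawal, 10.17 and 10.20 under TGF-β and 8.68 and 8.63 in control. It rose by 1.53 under TGF-β, fell by 0.82 on withdrawal and remained 0.71 above control (limma, adjusted p = 1.11e-05, 7.1e-05 and 0.00011). Tll1, a related protease gene, rose by 2.33 under TGF-β and was at -0.14 after withdrawal against control (limma, adjusted p = 0.441).

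Fn1, the gene of fibronectin, to which Lox binds, measured 14.16 and 14.13 after withdrawal, 13.69 and 13.69 under TGF-β and 12.03 and 12.04 in control, in the same order of states as Loxl1. Its difference between withdrawal and TGF-β was 0.46 on this probe set (limma, adjusted p = 0.00055) and -0.02 on the next one (adjusted p = 0.877), and it was lost with hybridization spikes at 0.22 (adjusted p = 0.175). Postn, the gene of periostin, which links Bmp1 to fibronectin, was above control by 2.17 under TGF-β and by 1.73 after withdrawal. Pcolce, an enhancer of procollagen processing, rose by 1.20 under TGF-β and by a further 1.71 on withdrawal. Its relative Pcolce2 went the other way on withdrawal: it was 2.32 above control under TGF-β, changed by -2.41 from TGF-β to withdrawal and was at -0.09 against control (limma, adjusted p = 6.5e-06, 5.83e-06 and 0.341). Ltbp2, which encodes a latent TGF-β binding protein of elastic fibres, had the largest rise of these genes under TGF-β, 4.53, then changed by -3.81 and was 0.73 above control after withdrawal (limma, adjusted p = 6.85e-06, 9.92e-06 and 0.00505). Fbln5, which encodes an elastic fibre protein that tethers Loxl1, was dim on all arrays, at 4.88 to 5.23. Against control Fbln5 was at -0.0027 under TGF-β and -0.11 after withdrawal and passed in neither (limma, adjusted p = 0.992 and 0.537).

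Of these 22 genes, 5 rose from TGF-β to withdrawal, 10 fell and 7 did not pass, beside 21.8% and 22.1% of all genes, with a median of -0.17, and 5 fell without the first withdrawal array, without the second TGF-β array or with poly-A scaling. Against control 10 were higher after withdrawal, 3 lower and 9 did not pass, beside 21.7% and 23.6% of all genes. When any single array was left out 1 was lower, and with hybridization spike scaling 10 were.

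**Figure D4:**
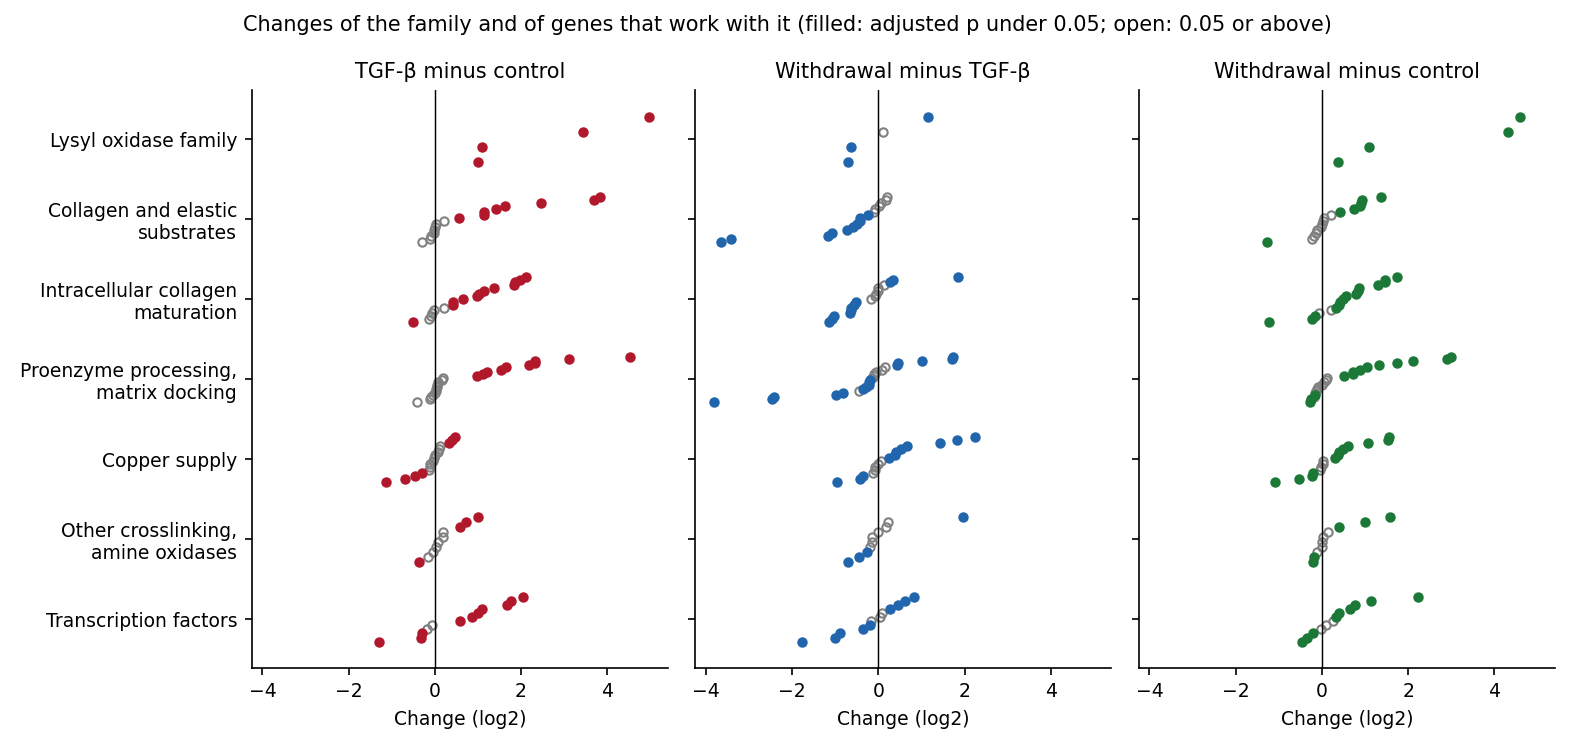
Log2 change (horizontal axis) of each measured gene of the lysyl oxidase family and of 6 lists of genes with related functions. The 3 panels show TGF-β minus control, withdrawal minus TGF-β and withdrawal minus control. Not every listed gene acts with the family. Filled points passed limma at an adjusted p under 0.05. In the right panel the points of Lox and Loxl1, at 4.32 and 4.61, lie furthest to the right.

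Copper reaches the enzymes through the transporter Atp7a in the secretory pathway. Atp7a measured 9.76 and 9.74 after withdrawal, 9.10 and 9.07 under TGF-β and 8.69 and 8.68 in control, in the same order as Loxl1 and with no overlap. Its changes were 0.40 for TGF-β against control, 0.66 for withdrawal against TGF-β and 1.06 for withdrawal against control (limma, adjusted p = 0.00149, 0.000125 and 1.98e-05). The rise under TGF-β did not pass with poly-A and hybridization spikes, at 0.12 and 0.26 (limma, adjusted p = 0.547 and 0.173). With them TGF-β was therefore not called above control. The related transporter gene Atp7b went the other way under TGF-β, by -1.13, then changed by 1.44 on withdrawal (limma, adjusted p = 0.000333 and 7.9e-05), but its next probe set was at 0.03 and -0.01 (adjusted p = 0.88 and 0.954). The copper importer gene Slc31a1 was at 0.09 under TGF-β (limma, adjusted p = 0.316) and at 0.50 after withdrawal, both against control. For withdrawal against TGF-β it was at 0.42 on the probe set used and at -0.07 on the next one (limma, adjusted p = 0.00144 and 0.656). The former was lost with hybridization spikes, at 0.18 (adjusted p = 0.266). With poly-A and hybridization spikes the difference of Slc31a1 from control after withdrawal did not pass, at 0.36 and 0.13 (limma, adjusted p = 0.0871 and 0.415).

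Of the 16 copper supply genes, 3 rose and 4 fell under TGF-β and 9 did not pass, which is near the 15.0% and 17.5% of all genes, and 0 rose under either spike scaling. Between TGF-β and withdrawal 8 rose, 3 fell and 5 did not pass, beside 21.8% and 22.1% of all genes, with a median of 0.16 that turned to -0.08 with hybridization spikes, where 4 rose. The metallothionein genes Mt1 and Mt2 rose by 1.82 and 2.24, and are uncertain because they are closely similar. Against control 8 were higher after withdrawal, 4 lower and 4 did not pass, beside 21.7% and 23.6% of all genes, with 2 lower without the second control array or the first withdrawal array, and 4 and 3 higher with poly-A and hybridization scaling.

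Of 10 measured genes of other crosslinking enzymes and amine oxidases, 3 rose under TGF-β, 1 fell and 6 did not pass, beside 15.0% and 17.5% of all genes. Tgm2, a transglutaminase that crosslinks matrix proteins by another chemistry, rose by 0.59 under TGF-β and was at 0.14 after withdrawal against control (limma, adjusted p = 0.0707). Its rise was lost with poly-A spikes, at 0.30 (adjusted p = 0.128). Pxdn, which encodes the peroxidase that crosslinks network collagen, rose by 0.72 and then fell by 0.69 on withdrawal. Qsox1 rose by 1.00 under TGF-β and was still 1.00 above control after withdrawal (limma, adjusted p = 0.000105 and 5.92e-05). The amine oxidase gene Maoa changed by -0.37 under TGF-β and by 1.96 on withdrawal, and was then 1.58 above control (limma, adjusted p = 0.00393, 6.59e-06 and 9.68e-06). From TGF-β to withdrawal 1 of the 10 rose and 3 fell, beside 21.8% and 22.1% of all genes, with 2 rising without either control array or the first TGF-β array. Against control 3 were higher and 2 lower, beside 21.7% and 23.6% of all genes, with 0 lower without either control array or either withdrawal array.

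Of 12 measured genes of transcription factors reported to regulate or bind members, 7 rose under TGF-β, 3 fell and 2 did not pass, beside 15.0% and 17.5% of all genes. Snai1, a repressor of epithelial genes whose protein was reported to bind Loxl2 and Loxl3, measured 5.46 and 5.23 after withdrawal, 7.06 and 7.17 under TGF-β and 5.12 and 5.04 in control. Twist1 measured 8.20 and 8.25 after withdrawal, 7.89 and 7.64 under TGF-β and 6.06 and 5.93 in control, and like Loxl1 was highest after withdrawal. Its difference from TGF-β, 0.46, was lost with hybridization spikes at 0.23 (limma, adjusted p = 0.162). From TGF-β to withdrawal 4 of the 12 rose and 5 fell, beside 21.8% and 22.1% of all genes, with 2 rising without the second withdrawal array or with hybridization spikes, and 1 on the next probe sets. Against control 6 were higher after withdrawal and 3 lower, beside 21.7% and 23.6% of all genes, with 3 higher under hybridization spike scaling.

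Arrays of the same group correlated at 0.998, and arrays of different groups at 0.974 to 0.981. The descriptions name the 2 treated groups by the transition opposite to their titles, and the titles were followed here. On the arrays titled TGF-β the epithelial cadherin gene Cdh1 was at 8.25 to 8.37, against 11.79 to 11.80 after withdrawal and 11.89 to 11.99 in control. The defining marker genes of leukocytes, endothelium and fat, Ptprc, Pecam1 and Adipoq, were between 3.69 and 4.84 on all arrays, below the array medians of 5.77 to 5.79. Other genes of those lists were brighter. Cd14, listed with the leukocyte markers, measured 11.48 and 11.54 after withdrawal, 9.66 and 9.64 under TGF-β and 11.22 and 11.24 in control, and Cd68 measured 6.55 and 6.71 after withdrawal, 5.49 and 5.68 under TGF-β and 5.55 and 5.94 in control. Among 9 leukocyte markers, TGF-β against control gave 0 calls of higher and 1 of lower, beside 15.0% and 17.5% of all genes. There were 2 higher and 0 lower after withdrawal than under TGF-β, beside 21.8% and 22.1% of all genes. Withdrawal against control gave 2 higher and 1 lower, beside 21.7% and 23.6% of all genes. Their summed log2 level was 54.5 to 54.6 after withdrawal, 52.1 to 52.3 under TGF-β and 53.9 to 54.0 in control. The summed level of 7 endothelial markers was 33.8 to 34.1 after withdrawal, 34.1 to 34.6 under TGF-β and 34.4 to 34.6 in control, and Kdr among them lay above the array medians at 6.49 to 6.91. All 5 adipocyte markers lay below the array medians, at 3.69 to 5.17. Of 9 epithelial markers, 6 were lower under TGF-β than in control and 4 after withdrawal than in control, with summed log2 levels of 88.5 to 88.6 after withdrawal, 79.0 to 79.5 under TGF-β and 91.9 in control. Of 11 fibroblast markers, 3 were collagen genes counted above as substrates. Against control 5 were higher and 0 lower under TGF-β, beside 15.0% and 17.5% of all genes. After withdrawal 5 were higher and 0 lower than in control, beside 21.7% and 23.6%. From TGF-β to withdrawal 2 rose and 3 fell, beside 21.8% and 22.1%, and the rise of S100a4 was lost with either spike scaling. Their summed log2 level was 71.3 after withdrawal, 74.8 under TGF-β and 61.8 to 61.9 in control. The sums of unlogged values were 19897 to 21026, 17706 to 17795 and 5702 to 5893, so the order of the treated groups was reversed. The fibroblast gene Pdgfra was dim, at 4.47 to 5.22. The part of these cell markers in the changes of the lysyl oxidases was not tested.

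Among the 4 measured members, the search of RefSeq promoters gave an entry for Loxl4. The search left out a chromosome, so a member that lies on it is not shown to lack an entry. TGF-β acts through Smad factors, and Lox, Loxl1 and Loxl3 rose under it as Loxl4 did. The 250 bases before the transcript start of Loxl4 are shown because it was the member found in the search. They lie on the minus strand of chromosome 19 at chr19:42612807-42613056 of GRCm38.p6, and capitals mark the Smad half-site AGAC and the GC box GGGCGG on either strand.
Loxl4: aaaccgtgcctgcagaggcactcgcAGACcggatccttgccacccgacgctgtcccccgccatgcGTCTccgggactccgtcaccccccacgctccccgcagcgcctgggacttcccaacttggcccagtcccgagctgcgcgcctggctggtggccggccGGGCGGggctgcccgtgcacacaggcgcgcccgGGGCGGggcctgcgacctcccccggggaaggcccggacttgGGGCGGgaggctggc
The window holds AGAC or its reverse complement GTCT at 2 places, and GGGCGG or CCGCCC at 3. Of 32851 promoter windows of this length, 82.9% hold the first and 32.7% the second. The E-box CANNTG, found in 66.2% of windows, and the longer CAGACA or TGTCTG, found in 17.1%, are not in it. The motifs do not overlap each other, and a match is a description of letters, not evidence of binding.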

How the data were processed

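Expression was measured on 6 one-colour Affymetrix mouse arrays, 2 per group. Per the submitters' processing notes the authors made the deposited log2 values with RMA, a method that subtracts background, gives every array the same distribution and combines the probes of a set, so a shift shared by all genes is removed. Which program ran it is not stated. Per the labels' protocols, total RNA was labelled with a 3′ IVT kit, which reads the ends of transcripts. No detection calls were used, so dim values are not separated from background and their changes may be understated. The number of arrays limits the precision.

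Of 45101 probe sets, 64 controls were left out; 34945 had 1 gene symbol, 932 several and 9160 none. Genes were tested with limma 3.58.1 in R 4.3.3, in 1 linear model over all 6 arrays without covariates, with eBayes (degrees of freedom: 3 residual, 2.86 prior), two-sided and Benjamini-Hochberg adjusted over all 18193 genes at 0.05. The code was tested on simulated data. Tables used pandas 2.3.3 and figures matplotlib 3.10.9.

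The members, lists, tests and the rule for named genes were chosen with earlier results of these data known. The rule names all members, core partner genes, up to 6 called genes per list with the largest change, and the 5 genes closest to each member that changed by at least 1; some are given. Alternatives were a robust spread, an intensity trend, a block for replicate number, leaving out the dimmest 40% of genes, other choices of probe set, other normalisations, spike scaling, 2 groups only and leaving out each array. Same-numbered arrays did not deviate together over all genes (r = -0.0038, 0.0067 and -0.016 between groups). That cannot show whether they were grown or processed together.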

Additional observations from a re-analysis of the deposited data

Results flagged for a closer look

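The 2 probe sets that carry both the symbols Loxl2 and Gm21451 were outside the comparisons. Their signal was above control under TGF-β and below control after withdrawal. Probe set 1431004_at measured 11.94 and 11.92 under TGF-β, against 9.48 and 9.45 in control, a difference of 2.46. Probe set 1452436_at measured 9.97 and 10.10 under TGF-β, against 7.89 and 7.77 in control, a difference of 2.20. In the limma fit over 45037 probe sets both passed (adjusted p = 5.94e-06 and 1.44e-05).

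After withdrawal they measured 8.99 and 9.10, and 6.87 and 6.79, below the TGF-β arrays and below the control arrays. The differences from TGF-β were -2.88 and -3.20, and from control -0.42 and -1.0 (limma, adjusted p = 0.00346 and 0.000182 against control). The annotation does not separate the 2 genes, and which of them gave the signal was not tested.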

How the results depend on the processing

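The 12 changes of Lox, Loxl1, Loxl3 and Loxl4 were recomputed under up to 18 alternatives, and 209 of 213 values kept their direction and their side of the threshold. Several alternatives altered only the estimate of spread or the genes tested, so direction could not change under them. Leaving out an array of the group not compared gave the same result as the fit of the compared groups only. These values are therefore not independent checks. The fall of Loxl4 on withdrawal against TGF-β did not pass on its other probe set, at -0.062, which left 1 member lower. With hybridization spikes Loxl3 turned to -0.14 for withdrawal against TGF-β. Loxl4 for withdrawal against control did not pass at 0.24 with poly-A spikes and at 0.0078 with hybridization spikes. The cause was not tested. The size depended on the probe sets: the change of Lox under TGF-β was 3.62 as the mean of its probe sets, and that of Loxl1 was 2.36 as the mean and 1.27 on the other probe set. Leaving out 1 array at a time changed no member's call, with Lox at 4.92 to 5.01 and Loxl1 at 3.28 to 3.61 under TGF-β.

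TGF-β against control gave 2726 genes higher and 3175 lower, beside 847 and 5733 with poly-A spikes and 1280 higher with hybridization spikes. In the comparison of withdrawal with TGF-β 3960 were higher and 4023 lower, against 1607 lower with poly-A spikes, and 1980 higher and 7566 lower with hybridization spikes. For withdrawal against control 3943 were higher and 4292 lower, against 1999 higher with poly-A spikes, and 1601 higher and 12199 lower with hybridization spikes. The median over all genes was -0.30, 0.11 and -0.19 with poly-A spikes and -0.15, -0.27 and -0.42 with hybridization spikes, for TGF-β minus control, withdrawal minus TGF-β and withdrawal minus control, and the changes reported are relative to the common level of the arrays. With the replicate number as a block no member's call changed, Lox was at 4.96 under TGF-β (limma, adjusted p = 3.17e-05), and 2568 genes were higher and 2951 lower than in control.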
